A study of Mus musculus with 12 samples.

Results

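The genes described here are 9 that carry out or regulate the reabsorption of calcium and magnesium in the distal nephron: Trpm6, Trpv5, Calb1, S100g, Slc8a1, Casr, Cnnm2, Fxyd2 and Pvalb. They were taken by gene name, with earlier results of these data known, are 9 of the 22053 rows of the deposited table, and all 9 passed the filter on low values that left 13148 genes for testing. Messenger RNA of whole kidney was sequenced from 12 wild-type C57BL/6 mice, with 1 library per mouse and 4 mice in each of 3 groups. Control mice received weekly intraperitoneal PBS and the same diet without adenine. CKD mice were fed 0.2% adenine for 8 weeks, from 8 to 16 weeks of age, which injures the tubules and leaves a chronic kidney disease, and also received PBS. CKD+Fe mice were fed the same adenine diet and received weekly intraperitoneal iron dextran at 0.5 g/kg in place of PBS. Mice are numbered 1 to 4 within a group, and the number only names a mouse.

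The distal convoluted tubule and the connecting tubule set how much calcium and magnesium leaves in the urine. Calcium enters the cell through the channels TRPV5 and TRPV6, is carried across it by calbindins, and leaves through the sodium/calcium exchanger and the plasma membrane calcium pumps. Magnesium enters the distal convoluted tubule through TRPM6, and its exit depends on CNNM2 and on the sodium gradient of the Na,K-ATPase, of which FXYD2 is a small regulatory subunit. Further upstream, in the thick ascending limb, the calcium-sensing receptor and the claudins set the passage of both ions between the cells. Parathyroid hormone, active vitamin D, klotho and EGF are known regulators of these steps.

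Values are FPKM, in which reads are divided by the length of the transcript and by the depth of the library, so levels of different genes can be set side by side per length. The smallest steps of the values correspond to roughly 19600000 to 28500000 reads per library. The middle of the deposited values differed between groups. Over all tested genes the median difference between CKD and control was 0.50 on the log2(FPKM + 1) scale. It was 0.01 after each library was rescaled to its median gene, a step that brings this median near 0 by construction. A shift of the scale and a broad change in the RNA cannot be told apart here. Median differences also went with transcript length, being 0.07 for genes with transcripts of up to 1335 bases and 0.84 for genes with transcripts of 6593 bases or more. Control 3, CKD 3 and CKD+Fe 1 stood apart from their groups, where 595, 805 and 442 genes differed 2-fold or more from the remaining mice. The injury markers Lcn2 and Havcr1 were higher in CKD than in control kidneys by 7.05 and 6.05 on the log2 scale, and 7 of 8 proximal tubule genes were lower.

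In control kidneys the 9 genes spanned more than 3 orders of magnitude per length. Fxyd2 (mean 3984 FPKM) and S100g (1754 FPKM) were the most abundant, and their ranges over the 4 mice did not overlap. Calb1 (82.2 FPKM) and Pvalb (62.0 FPKM) came next and overlapped with each other. Cnnm2 followed at 12.8 FPKM. Casr, Slc8a1 and Trpv5 lay at 4.73, 4.51 and 4.11 FPKM with overlapping ranges. Trpm6 had the lowest mean, at 2.36 FPKM, and its range overlapped those of Casr and Slc8a1 but not that of Trpv5. In CKD kidneys Pvalb had moved from 4th to last place, at 5.36 FPKM, and Trpv5 from 8th to 4th, at 20.2 FPKM. Slc12a3, the sodium chloride cotransporter that defines the distal convoluted tubule, was present in every mouse at 107 to 592 FPKM.

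The first question was whether adenine-induced CKD changed these genes. In CKD against control, 4 of the 9 rose (Trpm6, Trpv5, Slc8a1 and Casr), 2 fell (Fxyd2 and Pvalb) and 3 did not pass the test (Calb1, S100g and Cnnm2), at an adjusted p under 0.05 over all tested genes. On the same scale 54.6% of all tested genes rose, 13.3% fell and 67.9% were called in either direction. For as few as 9 genes, 4 rises and 2 falls lie near these shares. The median difference of the 9 was 0.32, against 0.50 for all genes. After rescaling to the median gene the split was 2 higher and 4 lower, beside 3781 higher and 3856 lower of all 13148 genes. Under quantile normalization it was 1 higher and 3 lower, beside 3060 higher and 3363 lower. With an adjustment for transcript length, added after the data were seen, it was also 1 higher and 3 lower. The background there was 3388 higher and 3662 lower of 13122 genes. Trpv5 as the rise, and Fxyd2 and Pvalb as falls, were called on all 4 scales.

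**Figure D1:**
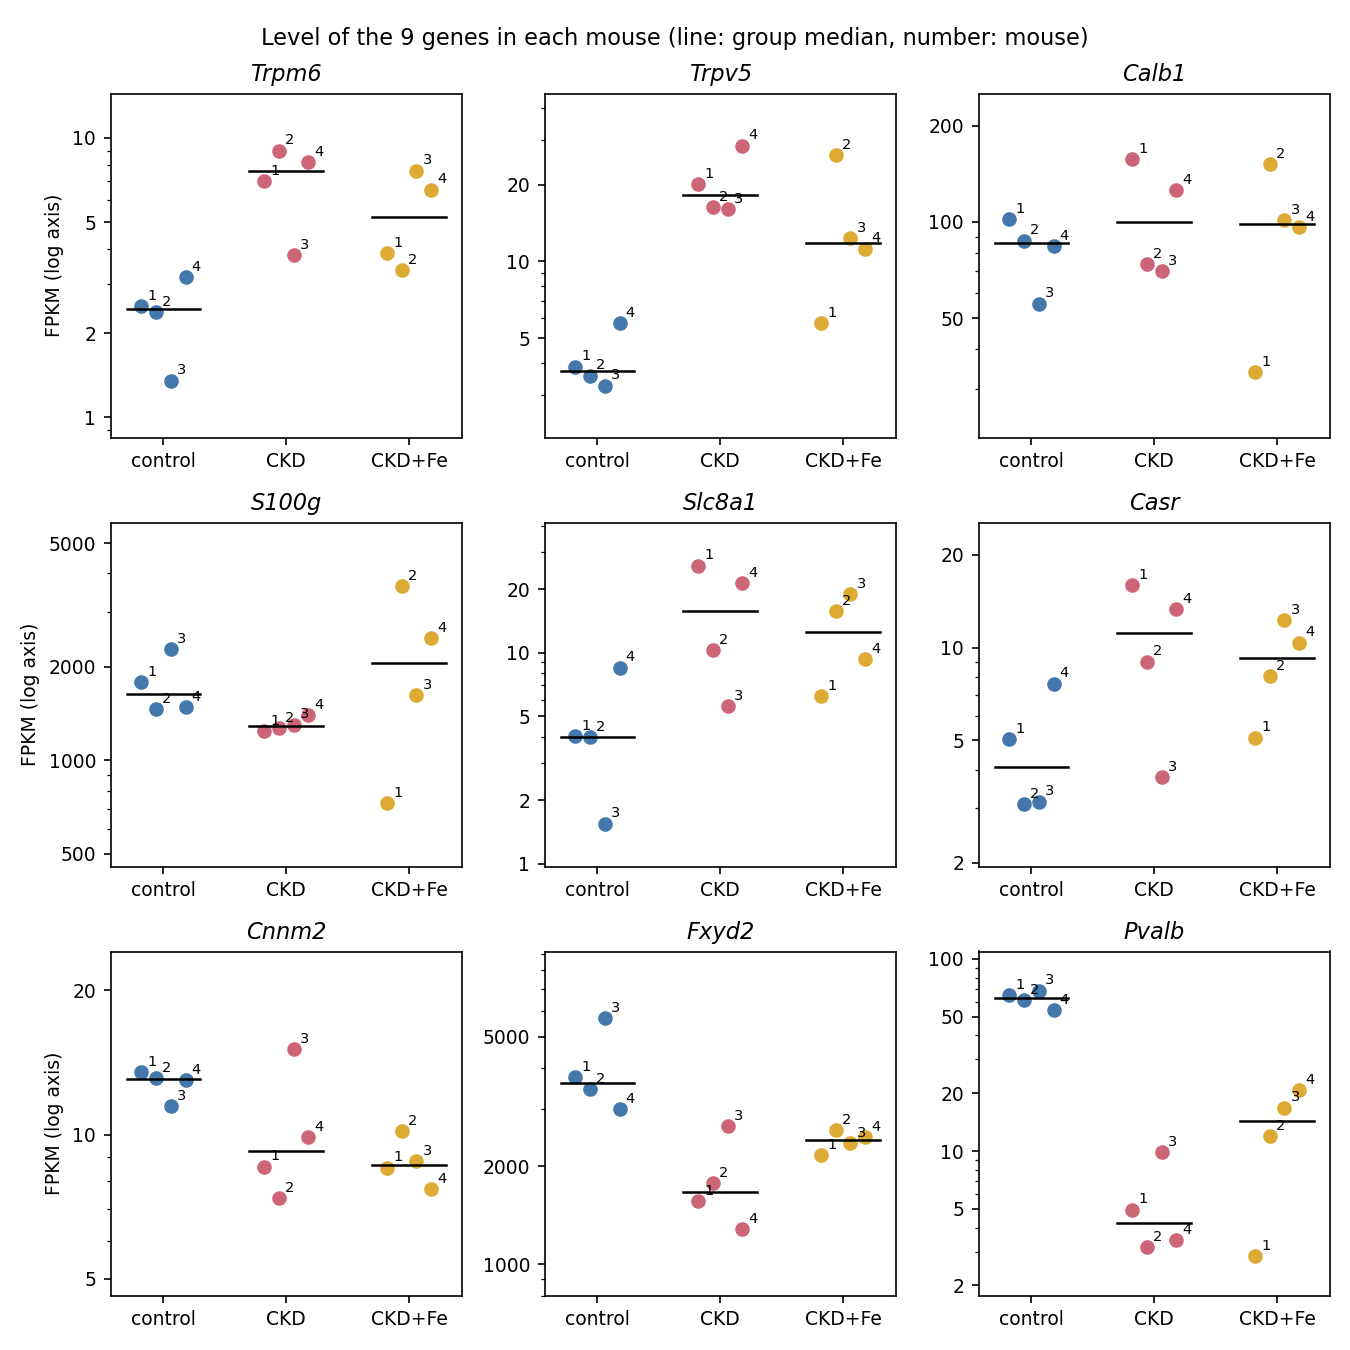
FPKM of the 9 genes in each of the 12 mice on log axes, with 1 panel per gene, 1 point per mouse (numbered within its group) and a line at the group median. For Trpv5 the 4 CKD mice lie between 16.02 and 28.4 FPKM and the 4 control mice between 3.26 and 5.75 FPKM, and for Pvalb the order is turned, with 54.1 to 68.3 FPKM in control and 3.16 to 9.86 FPKM in CKD kidneys.

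Trpv5 (ENSMUSG00000036899, GRCm38 chr6:41652173-41680769, minus strand) encodes the channel through which calcium enters distal tubule cells from the urine. Its level was 3.87, 3.57, 3.26 and 5.75 FPKM in the control mice, 20.1, 16.4, 16.02 and 28.4 FPKM in the CKD mice, and 5.74, 26.0, 12.3 and 11.2 FPKM in the CKD+Fe mice. Every CKD mouse lay above every control mouse, as for 44.6% of all tested genes, while the CKD+Fe mice ran from just under the highest control value to nearly the highest CKD value. The rise in CKD was 2.04 on the log2(FPKM + 1) scale (SE 0.33, n = 4 against 4, limma adjusted p = 0.000123), a 4.12-fold difference on that scale. It was 1.54 after rescaling to the median gene (adjusted p = 0.00186) and 1.57 with the adjustment for transcript length (adjusted p = 0.00198). Under quantile normalization it was smallest, at 1.40 (adjusted p = 0.0067). The 12 fits that each omitted 1 mouse gave 1.87 to 2.18.

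Trpv6, the closest relative of Trpv5 and a neighbour on the same chromosome, is not one of the 9 genes but takes part in the same entry step. It was at 0.412, 0.693, 0.748 and 0.426 FPKM in the control mice, 5.34, 12.03, 8.94 and 9.45 FPKM in the CKD mice, and 4.66, 5.66, 4.80 and 6.46 FPKM in the CKD+Fe mice. Thus Trpv6 was below 1 FPKM in every control kidney and above 4 FPKM in every kidney of an adenine-fed mouse. Higher levels without overlap were seen for 44.6% of tested genes in CKD and 50.4% in CKD+Fe. The rise of Trpv6 in CKD was 2.62 (SE 0.20, adjusted p = 2.74e-07) and was called on all the scales tried. The lowest control value stands on roughly 28 reads.

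The sequences just before the start sites of Trpv5 and Trpv6, which rose, of Pvalb, which fell most, and of S100g, which did not pass the test, are shown because these genes of calcium entry and binding differ in direction. They are taken from the RefSeq promoter table for GRCm38.p6, on the minus strand, read 5′ to 3′ and ending next to the annotated start. Capitals mark the word AGGTCA on either strand, the related word GGTTCA and also the word AGTTCA, which are 6-letter words of the kind found in the half-sites of nuclear receptors such as the vitamin D receptor. The windows are chr6:41680770-41680973 for Trpv5, chr6:41636406-41636655 for Trpv6, chr15:78206401-78206650 for Pvalb and chrX:162964600-162964849 for S100g.
Trpv5: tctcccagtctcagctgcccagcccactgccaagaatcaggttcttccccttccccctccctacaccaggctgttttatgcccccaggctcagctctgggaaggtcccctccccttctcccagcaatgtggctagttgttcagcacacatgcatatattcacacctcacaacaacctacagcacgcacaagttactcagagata
Trpv6: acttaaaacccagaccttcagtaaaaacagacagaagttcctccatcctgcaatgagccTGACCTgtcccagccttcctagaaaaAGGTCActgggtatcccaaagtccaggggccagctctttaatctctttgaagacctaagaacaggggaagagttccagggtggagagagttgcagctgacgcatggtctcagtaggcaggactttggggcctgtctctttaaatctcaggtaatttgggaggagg
Pvalb: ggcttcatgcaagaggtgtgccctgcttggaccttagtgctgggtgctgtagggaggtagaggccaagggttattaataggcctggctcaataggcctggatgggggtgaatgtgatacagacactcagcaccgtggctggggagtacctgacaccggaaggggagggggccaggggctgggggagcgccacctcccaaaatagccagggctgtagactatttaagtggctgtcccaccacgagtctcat
S100g: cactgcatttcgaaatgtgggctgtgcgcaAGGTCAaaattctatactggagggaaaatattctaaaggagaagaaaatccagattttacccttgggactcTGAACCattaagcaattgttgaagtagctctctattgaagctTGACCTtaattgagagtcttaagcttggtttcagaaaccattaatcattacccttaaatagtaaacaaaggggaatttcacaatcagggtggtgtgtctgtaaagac
The window of Trpv6 holds AGGTCA once on each strand, and that of S100g holds 3 such words, while those of Trpv5 (204 bases) and Pvalb (250 bases) hold none. The windows of Trpm6, Casr, Cnnm2 and Slc8a1, searched in the same way and not shown, hold none either. Another window listed for Pvalb lies within the gene and was not searched. Of 32851 promoter windows of 250 bases, 14% hold AGGTCA on either strand and 30.7% hold at least 1 of the 3 words. A word found here is a description of the letters and not a bound site.

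Calb1 and S100g encode the 2 calbindins, the cytosolic proteins that bind calcium on its way through the cell. Calb1 (ENSMUSG00000028222, chr4:15881264-15908064, plus strand) was at 102, 87.4, 55.5 and 83.9 FPKM in the control mice, 157, 73.6, 70.3 and 126 FPKM in the CKD mice, and 33.9, 152, 101 and 96.2 FPKM in the CKD+Fe mice. The 3 groups overlapped widely, and the difference between CKD and control was 0.32 (SE 0.39, 95% interval -0.51 to 1.16, adjusted p = 0.472). Its sign turned to -0.25 after rescaling to the median gene. S100g (ENSMUSG00000040808, chrX:162961992-162964599, minus strand) was at 1787, 1466, 2276 and 1485 FPKM in the control mice and 1239.6, 1271, 1303 and 1399 FPKM in the CKD mice. Every CKD mouse lay below every control mouse, as for 10.5% of all tested genes. An exact permutation test gave p = 0.0286, the smallest that 4 against 4 mice allow, but the difference of -0.41 (SE 0.37) did not pass the test over all genes (adjusted p = 0.343). After rescaling to the median gene it was -0.98 (adjusted p = 0.0448). The CKD+Fe mice were at 728, 3640.2, 1626 and 2479 FPKM, which spans both other groups. S100g lies within Ctps2 on the opposite strand, and how the counting treated strand is not given in the sources used here.

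Slc8a1 (ENSMUSG00000054640, chr17:81388691-81649607, minus strand) encodes the sodium/calcium exchanger that moves calcium out of the cell on the blood side. Its level was 4.02, 3.98, 1.55 and 8.498 FPKM in the control mice, 25.9, 10.3, 5.57 and 21.4 FPKM in the CKD mice, and 6.25, 15.8, 18.9 and 9.32 FPKM in the CKD+Fe mice. Control 4 overlapped with CKD 3, so 3 of 4 CKD mice lay above all control mice. The rise in CKD was 1.55 (SE 0.47, adjusted p = 0.0101). On the other scales it was not called, at 1.06 after rescaling (adjusted p = 0.074), 0.91 under quantile normalization (adjusted p = 0.148) and 1.08 with the length adjustment (adjusted p = 0.0763). The annotation places an antisense transcript within Slc8a1, so reads of both could not be told apart if strand was ignored.

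Casr (ENSMUSG00000051980, chr16:36493696-36562141, minus strand) encodes the calcium-sensing receptor, which in the thick ascending limb restrains calcium and magnesium uptake when blood calcium is high. It was at 5.04, 3.11, 3.16 and 7.63 FPKM in the control mice, 15.9, 9.01, 3.79 and 13.3 FPKM in the CKD mice, and 5.10, 8.09, 12.2 and 10.4 FPKM in the CKD+Fe mice. CKD 3 fell within the control range and the other 3 CKD mice lay above it. The rise of 0.93 (SE 0.37, adjusted p = 0.0392) missed the threshold in 6 of the 12 fits that left out 1 mouse, in which it ran from 0.69 to 1.299. It was 0.43 after rescaling to the median gene (adjusted p = 0.329), and 1.17 without control 3, CKD 3 and CKD+Fe 1 (adjusted p = 0.00248).

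Trpm6 (ENSMUSG00000024727, chr19:18749983-18892510, plus strand) encodes the magnesium channel of the distal convoluted tubule. It was at 2.5025, 2.38, 1.35 and 3.18 FPKM in the control mice and 6.99, 9.01, 3.80 and 8.19 FPKM in the CKD mice, with 3.86, 3.37, 7.64 and 6.53 FPKM in the CKD+Fe mice. All adenine-fed mice, with and without iron, lay above all control mice (44.6% of tested genes in CKD and 50.4% in CKD+Fe), and CKD 3 was the lowest of its group. The rise in CKD was 1.23 (SE 0.27, adjusted p = 0.00135) and was 0.78 after rescaling (adjusted p = 0.0215). It was not called under quantile normalization (0.43, adjusted p = 0.184) or with the length adjustment (0.48, adjusted p = 0.0796). The longest listed transcript of Trpm6, of 6509 bases, is the longest among the 9 genes, and the part of the length shift in its rise was not tested further.

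Cnnm2 (ENSMUSG00000064105, chr19:46761596-46878795, plus strand) encodes a membrane protein of the blood side of the distal convoluted tubule that is needed to keep magnesium. It was at 13.5, 13.1, 11.5 and 13.0 FPKM in the control mice, 8.58, 7.38, 15.1 and 9.88 FPKM in the CKD mice, and 8.53, 10.2, 8.79 and 7.69 FPKM in the CKD+Fe mice. The control mice lay close together, and 3 of 4 CKD mice lay below them while CKD 3 lay above. As deposited, the difference of -0.34 (SE 0.18) did not pass the test (adjusted p = 0.108). It passed after rescaling (-0.87, adjusted p = 0.0018), with the length adjustment (-0.98, adjusted p = 0.0016) and without control 3, CKD 3 and CKD+Fe 1 (-0.57, adjusted p = 0.00242). All 4 CKD+Fe mice lay below all control mice, as for 9.85% of tested genes, a fall of 0.49 (SE 0.18, adjusted p = 0.0251).

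Fxyd2 (ENSMUSG00000059412, chr9:45403138-45410278, plus strand) encodes the gamma subunit of the Na,K-ATPase, which is found along much of the nephron and whose loss causes magnesium wasting. It was at 3765, 3457, 5714 and 3001 FPKM in the control mice, 1558, 1776, 2657 and 1279.9 FPKM in the CKD mice, and 2164, 2583, 2355 and 2456 FPKM in the CKD+Fe mice. No adenine-fed mouse reached the lowest control mouse (10.5% of tested genes were lower without overlap in CKD and 9.85% in CKD+Fe). The fall in CKD was -1.14 (SE 0.25, adjusted p = 0.0012), or -1.72 after rescaling and -1.28 with the length adjustment. Under quantile normalization it was smallest, at -0.82 (adjusted p = 0.00099).

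Pvalb (ENSMUSG00000005716, chr15:78191114-78206400, minus strand) encodes parvalbumin, a cytosolic calcium-binding protein known within the kidney from the early distal convoluted tubule. Its level was 64.6, 61.0, 68.3 and 54.1 FPKM in the control mice, 4.96, 3.16, 9.86 and 3.44 FPKM in the CKD mice, and 2.83, 11.99, 16.8 and 20.8 FPKM in the CKD+Fe mice. Even the highest adenine-fed mouse was well below the lowest control mouse. Lower levels without overlap were seen for 10.5% of tested genes in CKD and 9.85% in CKD+Fe. The lowest Pvalb value stands on roughly 53 reads. The fall in CKD was -3.42 (SE 0.44, adjusted p = 2.02e-05), and 0.213% of all tested genes had a still lower difference. It was -3.95 after rescaling, -3.69 under quantile normalization and -3.58 with the length adjustment, and the fits that left out 1 mouse ran from -3.71 to -3.25. In whole kidney, fewer cells of a type and less RNA per cell cannot be told apart. Parvalbumin is also made in fast skeletal muscle. Of the 7 muscle genes measured 5 were below 1 FPKM in every mouse, Tnni2 rose in CKD by 1.01 (SE 0.22, adjusted p = 0.00114), and their summed level was 1.5025 to 5.83 FPKM in control and 4.05 to 7.40 FPKM in CKD kidneys.

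**Figure D2:**
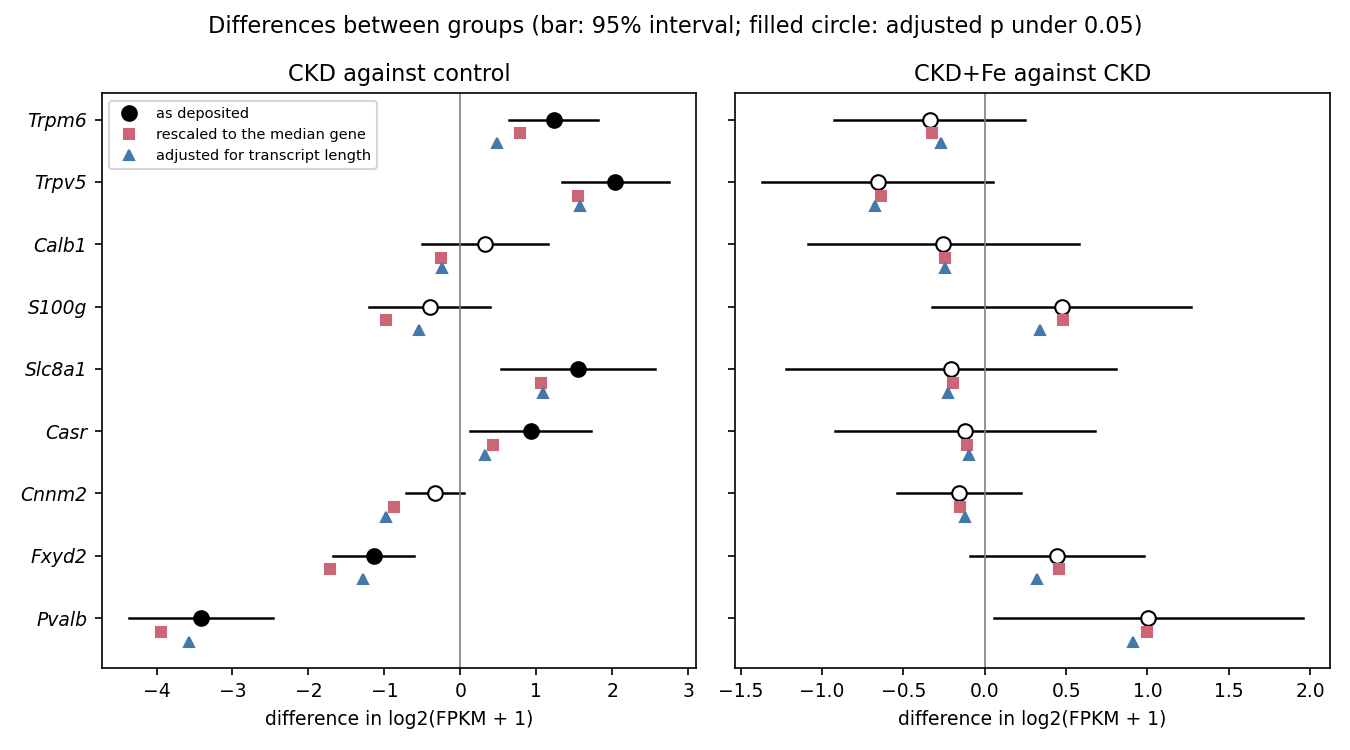
Differences between groups in log2(FPKM + 1) for the 9 genes, with CKD against control on the left and CKD+Fe against CKD on the right. Circles are the values as deposited with 95% intervals (filled where the adjusted p is under 0.05), squares the values rescaled to the median gene and triangles those adjusted for transcript length. On the left Trpv5 stays above 0 and Fxyd2 and Pvalb below 0 on each scale, and on the right no circle is filled.

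The 9 genes were also set against Slc12a3 in the same mouse, as a gene of the segment to which several of them belong. Slc12a3 itself was at 161, 242, 107 and 261 FPKM in the control mice, 350, 225, 209 and 354 FPKM in the CKD mice, and 218, 449, 592 and 392 FPKM in the CKD+Fe mice. Its difference between CKD and control was 0.60 (SE 0.33, adjusted p = 0.117), which became 0.03 after rescaling to the median gene. Relative to Slc12a3, Trpv5 was higher in CKD by 1.44 (SE 0.43, adjusted p = 0.0128). Pvalb was lower by -4.02 (SE 0.45, adjusted p = 8.43e-12), and Fxyd2 by -1.74 (SE 0.54, adjusted p = 0.0159). These are 3 of 9 genes called, against 15% of all tested genes (5.67% higher, 9.28% lower). The CKD and control mice did not overlap in this ratio for Trpv5 and Trpm6, which were higher in CKD as for 4.16% of tested genes, nor for Pvalb, which was lower as for 11.2% (exact permutation p = 0.0286 for each, the smallest possible). For Fxyd2 they did overlap (exact permutation p = 0.0571). The 6 other genes did not pass, with Slc8a1 at 0.95 (95% interval 0.09 to 1.81, adjusted p = 0.138) and Trpm6 at 0.63 (-0.24 to 1.496, adjusted p = 0.39). All ratios share the Slc12a3 value of the mouse, so they are not independent of each other. The limma fit pools the spread over genes and takes them as independent. Its p-values for these ratios, here and below, can therefore be too small. Fxyd2 and Casr are made in other segments too, where Slc12a3 is no reference. The calcium steps also take place in the connecting tubule, so ratios of Trpv5, Calb1, S100g and Slc8a1 are not within 1 segment.

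**Figure D3:**
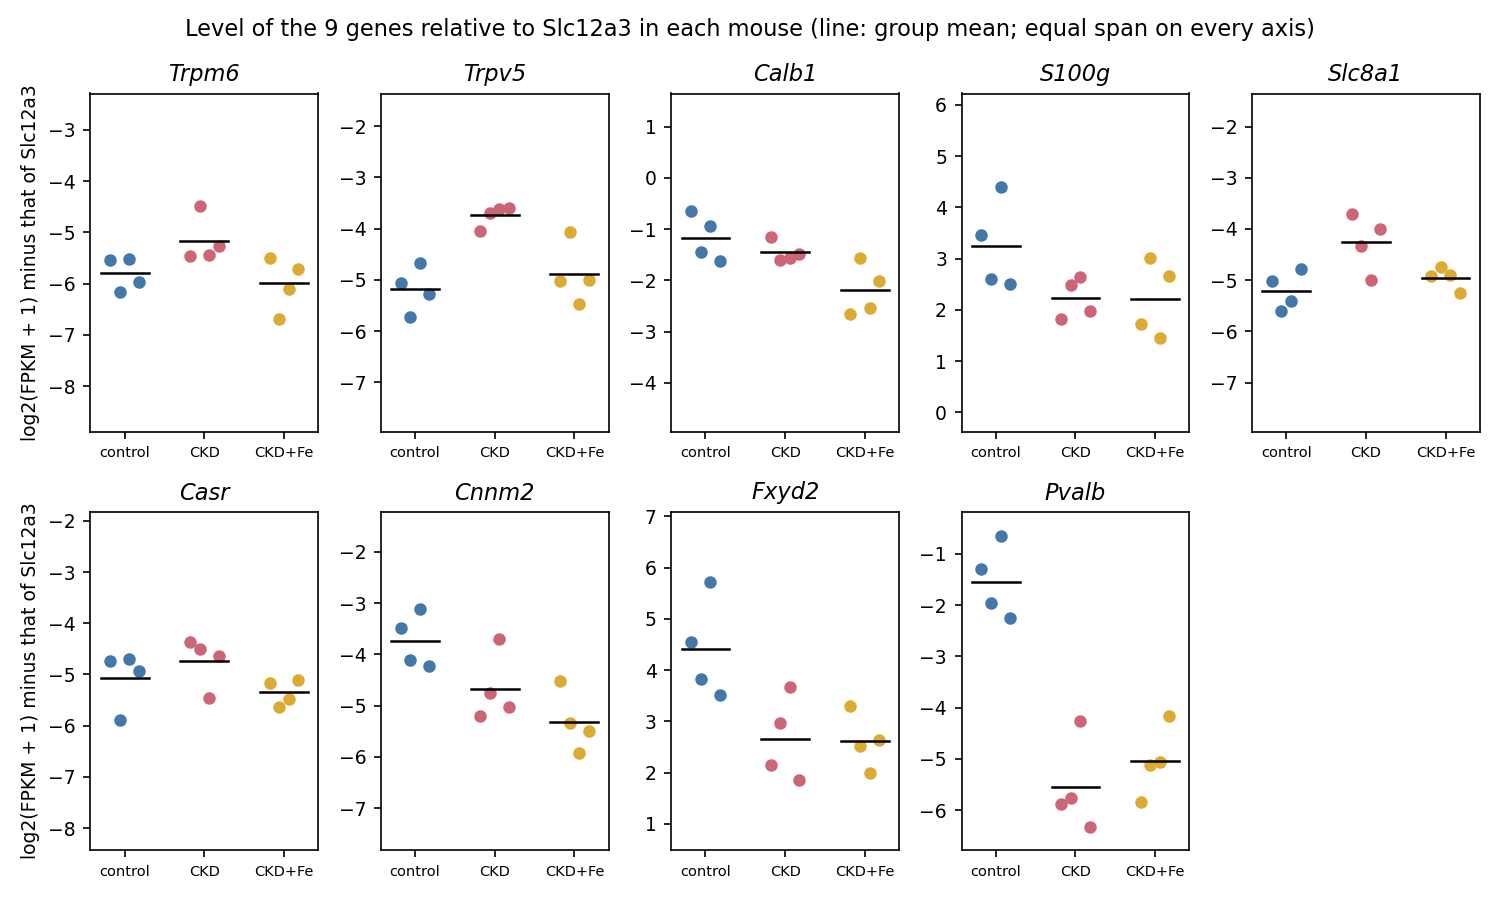
Level of each of the 9 genes in each mouse as log2(FPKM + 1) minus that of Slc12a3, with a line at the group mean and the same span on every vertical axis. The 4 CKD mice lie above the 4 control mice for Trpv5 and Trpm6 and below them for Pvalb.

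The second question was whether weekly iron dextran moved these genes in CKD mice. In CKD+Fe against CKD, 0 of the 9 genes were called by limma, with a background of 0.00761% of tested genes called in either direction. At an unadjusted p under 0.05 there was 1, Pvalb, where 6.01% of all tested genes passed this mark. Pvalb was higher in CKD+Fe by 1.005 (SE 0.44, 95% interval 0.06 to 1.95, unadjusted p = 0.0396, adjusted p = 0.804). CKD+Fe 1 had the lowest Pvalb of all 12 mice, while the other 3 CKD+Fe mice lay above every CKD mouse. Without control 3, CKD 3 and CKD+Fe 1 the difference was 1.84 (adjusted p = 0.0108), and with mice weighted by their agreement with the fit it was called as well (adjusted p = 0.0326). The first of these fits leaves out CKD+Fe 1 and also CKD 3, which had the highest Pvalb of the CKD mice.

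For the other 8 genes the CKD+Fe and CKD groups overlapped and their intervals included 0. Trpv5 differed by -0.66 (95% interval -1.37 to 0.05), with 3 of 4 CKD+Fe mice below all CKD mice. Fxyd2 differed by 0.44 (-0.09 to 0.98) and S100g by 0.47 (-0.32 to 1.27). Trpm6 was at -0.34 (-0.92 to 0.25), Calb1 at -0.25 (-1.09 to 0.58), Slc8a1 at -0.21 (-1.22 to 0.80), Cnnm2 at -0.16 (-0.54 to 0.22) and Casr at -0.12 (-0.92 to 0.68). The intervals of Trpv5, Calb1 and Slc8a1 reach beyond a 2-fold lower level and that of S100g beyond a 2-fold higher one, so differences of this size were not excluded for these genes.

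In CKD+Fe against control, which shares its mice with both comparisons above, 6 of the 9 genes were called: Trpm6 (0.89), Trpv5 (1.38) and Slc8a1 (1.34) were higher, and Cnnm2 (-0.49), Fxyd2 (-0.70) and Pvalb (-2.41) were lower. The background was 65.4% in either direction, 54.4% higher and 11% lower. After rescaling to the median gene 1 was higher and 3 lower, beside 3636 higher and 3618 lower of all 13148 genes. Under quantile normalization 2 were called, both lower, beside 2605 higher and 2967 lower. Trpm6 (0.46, adjusted p = 0.154) and Slc8a1 (0.87, adjusted p = 0.143) were not called after rescaling, nor with the length adjustment (0.21 and 0.86, adjusted p = 0.445 and 0.157), and neither Trpv5 (0.66, adjusted p = 0.165) nor Fxyd2 (-0.38, adjusted p = 0.0711) was called under quantile normalization. Slc8a1, Cnnm2 and Fxyd2 each missed the threshold in 3 of the 12 fits that left out 1 mouse. Relative to Slc12a3, Pvalb was lower by -3.503, Fxyd2 by -1.79 and Cnnm2 by -1.59, while Trpv5 was at 0.29 (adjusted p = 0.65). These 3 of 9 stand beside 23.3% of all tested genes called in this ratio (2.45% higher, 20.8% lower). Between CKD+Fe and CKD this ratio had a median difference of -0.49 over all 13147 tested genes and was positive for 351 of them. Trpv5 differed by -1.15 (SE 0.43, unadjusted p = 0.00938) and Trpm6 by -0.83 (SE 0.44, unadjusted p = 0.061), neither of which passed the test over all genes (adjusted p = 0.541 for both). For these 2 genes all CKD+Fe mice lay below all CKD mice in the ratio, as for 0.449% of tested genes.

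The other genes of the pathway were described from 4 lists of 45 genes, of which 43 were tested. In CKD against control 16 were higher and 7 lower, and 20 did not pass, beside background shares of 54.6% higher and 13.3% lower. Their median difference was 0.35, against 0.50 for all genes. After rescaling to the median gene the split was 10 higher and 16 lower, and under quantile normalization 16 higher and 11 lower.

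Among 11 further calcium and magnesium transporters 6 rose and none fell, although after rescaling 5 were higher and 3 lower. Trpv6 (2.62) and Atp2b1 (1.43, SE 0.20, adjusted p = 4.37e-05), a plasma membrane calcium pump that works beside the sodium/calcium exchanger, rose most. Both were also called after rescaling, at 2.30 and 0.90.

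Among 15 tested hormones, receptors and regulators 5 rose and 5 fell, and after rescaling to the median gene 3 were higher and 8 lower (5 and 6 under quantile normalization). The largest rises were those of Anxa2 (2.41, SE 0.32), an annexin that with S100a10 takes TRPV5 to the membrane, and of Cyp27b1 (2.12, SE 0.51), the enzyme that activates vitamin D. The largest falls were those of Egf (-2.49, SE 0.36), a magnesium-sparing hormone of the distal tubule, and of Kl (-1.71, SE 0.30), which encodes klotho. All 4 were called after rescaling too. Vdr, the vitamin D receptor, differed by -0.36 (SE 0.19, adjusted p = 0.11) as deposited and by -0.93 after rescaling (adjusted p = 0.00182).

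In the thick ascending limb list 4 of 9 tested genes rose and 1 fell, and after rescaling 2 were higher and 3 lower (5 and 2 under quantile normalization). Cldn19 (1.23, SE 0.28), a claudin needed for magnesium passage, and Rragd (1.07, SE 0.21), a GTPase mutated in a kidney disease with low magnesium, rose most. Cldn10 (-1.14, SE 0.22) fell. In the distal convoluted tubule list 1 of 8 rose, Stk39 (0.89, SE 0.20), a kinase that activates the sodium chloride cotransporter, and 1 fell, the transcription factor Emx1 (-1.16, SE 0.17). The rise of Stk39 was not called after rescaling (0.34, adjusted p = 0.143), when 0 of the 8 genes were higher and 2 lower. Thus in whole kidney Pvalb and Emx1 were lower, while Slc12a3 and the 5 other tested genes of that list did not pass the test.

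**Figure D4:**
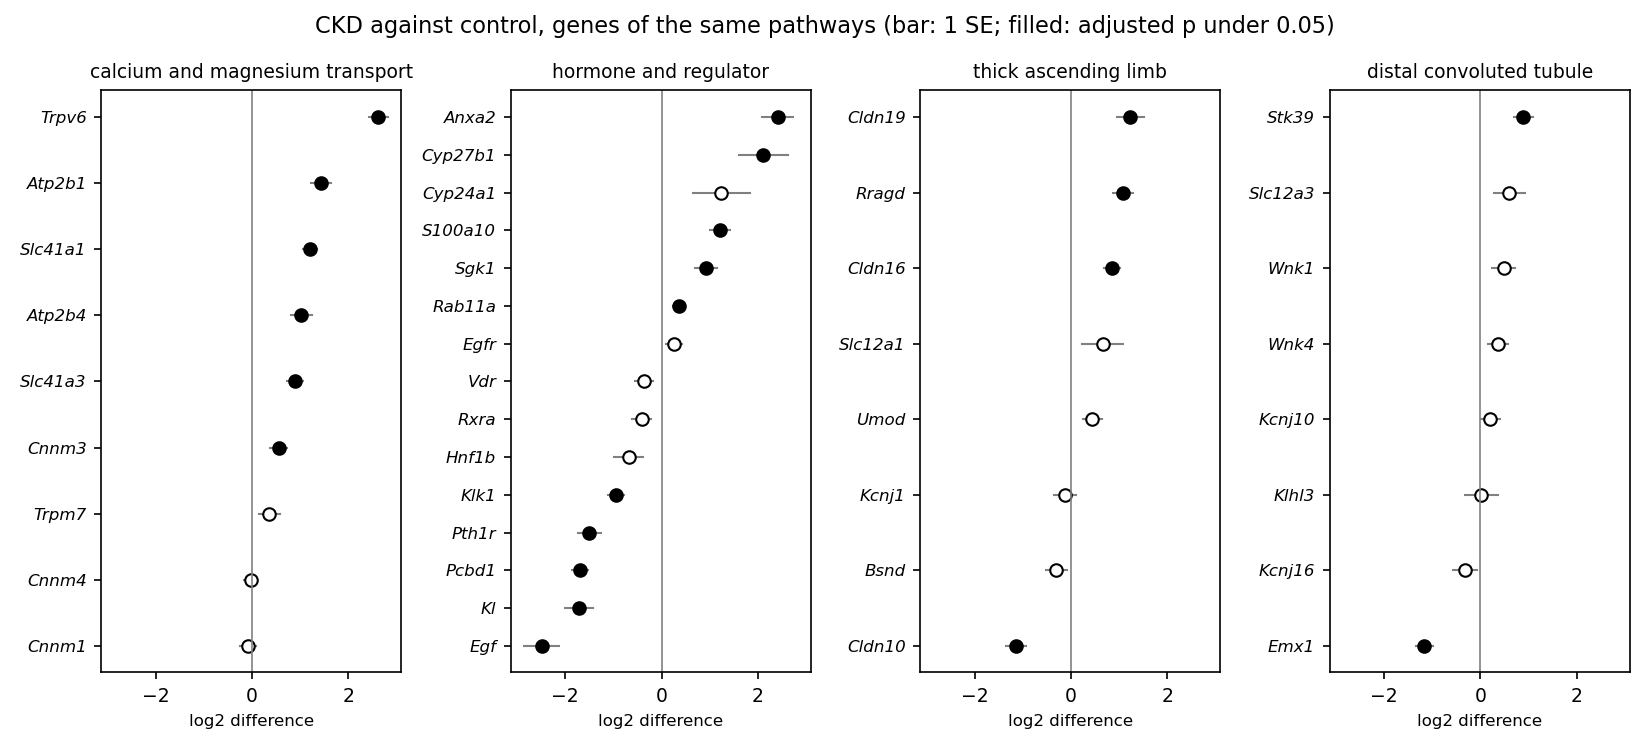
Difference between CKD and control in log2(FPKM + 1) for tested genes of the 4 pathway lists, with 1 point per gene, bars of 1 SE, and filled points where the adjusted p is under 0.05. Trpv6, Anxa2 and Cyp27b1 lie farthest to the right and Egf and Kl farthest to the left.

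In CKD+Fe against CKD, 0 of the 43 pathway genes were called, and 6 had an unadjusted p under 0.05, a mark that 6.01% of all tested genes passed. Trpv6 was lower in CKD+Fe (-0.60, SE 0.20, adjusted p = 0.571). Among those higher in CKD+Fe were Egf (1.26, SE 0.36, adjusted p = 0.458) and Klk1 (0.66, SE 0.17, adjusted p = 0.4), which encodes tissue kallikrein, and also Wnk4 and Emx1.

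Markers of other cell types moved with the same comparison. The summed level of 8 proximal tubule genes was 2687 to 3872 FPKM in control and 548 to 971 FPKM in CKD kidneys, and 7 of the 8 fell, Slc22a12 by -3.55 and Slc22a6 by -2.99. The sum of 6 macrophage genes was 77.5 to 131 FPKM in control and 628 to 1362 FPKM in CKD kidneys, and all 6 rose, Itgam by 3.54 and C1qb by 3.495. Of 7 smooth muscle and fibroblast genes 5 rose, with Col1a1 at 2.78 and Tagln at 1.97, and after rescaling 4 were higher and 1 lower. Among collecting duct genes, 2 of 9 of principal cells rose (Scnn1b and Gata3) and 2 fell (Aqp3 and Aqp2), and 2 of 6 of intercalated cells rose (Atp6v0d2 and Atp6v1b1) and 2 fell (Slc26a4 and Slc4a1). After rescaling, 0 principal cell genes were higher and 6 lower, and 1 intercalated cell gene was higher and 4 lower. Of 5 papilla and urothelium genes 0 were called by limma and 0 had an unadjusted p under 0.05. The summed level of the 8 distal convoluted tubule genes was 421 to 704 FPKM in control and 541 to 802 FPKM in CKD kidneys, so these ranges overlapped. The part of cell makeup in the results for the 9 genes was not tested beyond the ratio to Slc12a3.

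Within groups the 9 genes did not vary together as a block. Slc8a1 and Casr followed each other most closely among the 9 over the 12 mice (Pearson r 0.93, and 0.88 with group means removed), and Trpv5 followed Calb1 within groups (0.83) more than over all mice (0.57). Fxyd2 ran against Trpm6 (-0.89, and -0.68 with group means removed) and Slc8a1 (-0.86 and -0.74). These are descriptions over 12 mice that share their normalization. They also share the shift with transcript length between mice, and Fxyd2 (632 bases) is far shorter than Trpm6 (6509 bases) and Slc8a1 (3180 bases). The part of that shift in these correlations was not tested.

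CKD 3, in which long transcripts were low relative to short ones (-0.86 against the rest of its group), had the lowest Trpm6, Trpv5, Calb1, Slc8a1 and Casr of the CKD mice and the highest Fxyd2, Cnnm2 and Pvalb. Control 3, with the same kind of shift (-0.57), had the lowest Trpm6, Slc8a1, Calb1, Trpv5 and Cnnm2 of the control mice and the highest Fxyd2, S100g and Pvalb. Cnnm2 thus went opposite ways in control 3 and CKD 3. The longest listed transcripts of Fxyd2, Pvalb and S100g have 632, 977 and 480 bases and that of Cnnm2 has 4955. CKD+Fe 1 differed in another way: Trpv5 (-1.28), Calb1 (-1.72), S100g (-1.75), Slc8a1 (-1.06) and Pvalb (-2.16) were all low against the rest of its group, with long and short genes nearly level (-0.12). CKD+Fe 2 was high for Trpv5 (1.39), Calb1 (1.12) and S100g (1.35). The part of these shifts between mice in the comparisons was not tested beyond the fits without the 3 mice and with the length adjustment.

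**Figure D5:**
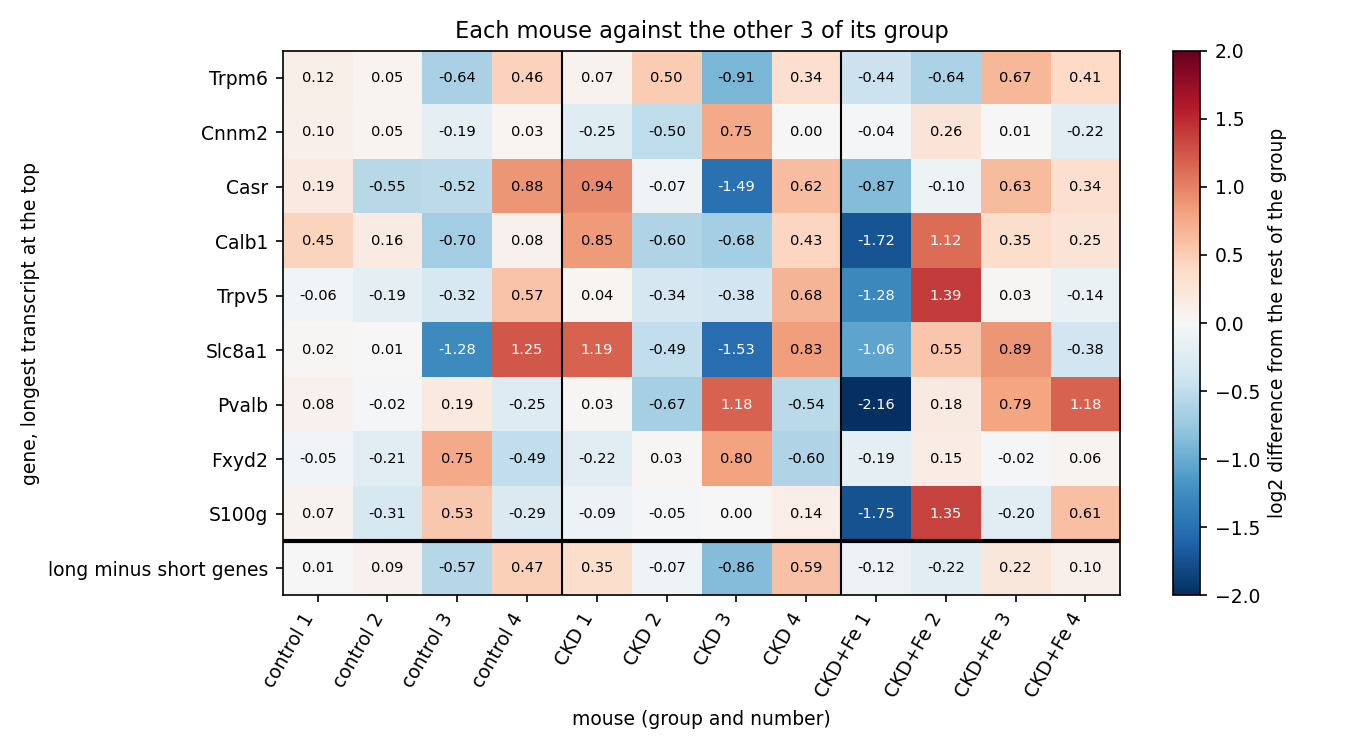
Each mouse against the mean of the other 3 mice of its group, as a log2 difference, for the 9 genes ordered by their longest listed transcript, with the difference between the genes of long and of short transcripts in the bottom row. Control 3 and CKD 3 are low in the bottom row (-0.57 and -0.86), and CKD+Fe 1 has the lowest values for Pvalb (-2.16), S100g (-1.75) and Calb1 (-1.72).

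The genes whose levels over the 12 mice were most like each of the 9, by Pearson r among all tested genes, differed from one to the next. Pvalb was most like Grpel1 (0.98), Fah (0.98) and Miox (0.97), and with group means removed these values were 0.87, 0.86 and 0.84. Fxyd2 was most like the respiratory chain genes Uqcr10 (0.99) and Uqcr11 (0.99) and the mitochondrial ribosomal gene Mrpl4 (0.99). For these genes the values with group means removed were 0.97 to 0.98. Trpv5 was most like Anln (0.96), Agbl2 (0.96) and Pde3b (0.96). Trpm6 was most like Zfx, Arhgap21 and Sbno1 (0.96 to 0.97). Slc8a1 came closest to 4930402H24Rik, Zdhhc23 and Ipo7 (0.97), and Casr to Mid2, Uty and Zdhhc23 (0.97 to 0.98). The closest to Calb1 were Rgn (0.94), Wdr72 (0.89) and Acnat1 (0.84), to S100g Lpcat3, Atp6v1g3 and Ppil6 (0.81 to 0.87), and to Cnnm2 Iba57, Hspa8 and Aven (0.90 to 0.91). None of the 9 was among the 3 most like another of the 9. Because levels also shifted with transcript length between mice, genes of similar length can follow each other for that reason. The part of this shift in these correlations was not tested.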

How the data were processed

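Whole kidney RNA of 12 mice was sequenced by the authors from stranded mRNA libraries (single-end reads, HiSeq4000). The submitters' processing notes name bcl2fastq 2.19, STAR 2.5.2, Cufflinks 2.1.1 and GRCm38. The authors deposited FPKM per gene and mouse, and read counts were not used here. The table has 22053 rows; 30 values of 17 genes were marked as failed and treated as missing, none of them in the 9 genes. Depth was read from the lowest values of genes with 1 listed transcript, taking 150 bases off its length, and is approximate. Starts were converted to count from 1.

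log2(FPKM + 1) was fitted with limma 3.58.1 (R 4.3.3, variance trend, all 12 mice, 3 groups) for the 13148 genes that reached 1 FPKM in 4 mice or more, with Benjamini-Hochberg adjustment over all of them, and called at an adjusted p under 0.05. Fold changes on this scale understate those of low genes. Single values were also compared by a two-sided exact permutation test over 70 arrangements. Alternatives were another pseudocount (0.1), quantile normalization, rescaling by the median of ratios, other filters (none, or a mean of 5 FPKM), array weights, no trend, fits of only the groups compared, thresholds of 0.01 and 0.5, and each mouse left out; the adjustment for transcript length (a spline with 5 degrees of freedom) was added after seeing the data. The fit was tested on simulated data. Mice are grouped by the labels, which name no batch and do not pair mice.

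The 9 genes and all lists were chosen with earlier results of these data known. Named were the 9 genes, Slc12a3, Trpv6, per list up to 2 of the largest rises and falls among genes called in CKD, and the 3 genes most like each of the 9; others named (S100a10, Vdr, and genes with an unadjusted p under 0.05 under iron) were chosen after their values were seen. Promoter sequences came from RefSeq (GRCm38.p6), trimmed to bases outside the GENCODE M21 gene. Some genes of the lists count in the totals but are not reported here by name.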

Additional observations from a re-analysis of the deposited data

How the results depend on the processing

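The number of the 9 genes called in CKD against control was 6, and stayed between 4 and 9 under every alternative, with 5 to 7 when 1 mouse was left out; which of them were called moved with the scale, as given above. In CKD+Fe against CKD it was 0, became 1 with array weights and 1 without control 3, CKD 3 and CKD+Fe 1 (Pvalb both times), and was 0 when any 1 mouse was left out. In CKD+Fe against control it was 6, became 2 under quantile normalization and 2 at an adjusted p under 0.01, and ran from 4 to 7 when 1 mouse was left out. Relative to Slc12a3 it was 3, became 8 with array weights, 5 without the 3 mice, 1 at an adjusted p under 0.01 and 7 at one under 0.5, and ran from 2 to 3 when 1 mouse was left out. Of the pathway genes, 23 were called in CKD against control (38 at an adjusted p under 0.5, 23 to 27 when 1 mouse was left out) and 0 in CKD+Fe against CKD (1 with array weights, 2 at an adjusted p under 0.5, 0 when 1 mouse was left out). Thresholds change these counts by construction; for the others the cause was not tested.

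Among the 9 genes, the differences that changed sign were all of genes not called. Of the pathway genes called higher in CKD, Cnnm3 (0.55) was -0.14 under quantile normalization and -0.12 with the length adjustment, and Rab11a (0.35) was -0.22 after rescaling and -0.02 with the length adjustment. Calb1 in CKD against control was -0.249 after median-of-ratios rescaling and -0.246 with the length adjustment. Calb1 in CKD+Fe against control was -0.493 and -0.489, and S100g -0.500 and -0.206, under the same settings. In CKD+Fe against CKD without the 3 mice, Calb1 was 0.00501 and Cnnm2 0.0404. When 1 mouse was left out, Calb1 ran from -0.53 to 0.18 in CKD+Fe against CKD and from -0.21 to 0.50 in CKD+Fe against control, S100g from -0.27 to 0.51 in CKD+Fe against control, and in CKD+Fe against CKD Slc8a1 ran from -0.59 to 0.0885, Casr from -0.49 to 0.12 and Cnnm2 from -0.28 to 0.0292. No paired analysis was possible because the labels give each mouse its own number and no number is shared between groups. With 4 mice per group an exact test cannot go below 0.0286.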
